A study of Homo sapiens with 4 samples.

Results

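A-kinase anchoring proteins (AKAPs) were examined as a family of 10 genes, AKAP1, AKAP2, AKAP6, AKAP8, AKAP8L, AKAP9, AKAP10, AKAP11, AKAP12 and AKAP13, by the N6-methyladenosine (m6A) peaks listed on their transcripts in the 2 deposited peak lists. The family was chosen by the peak numbers of AKAP13, which had more peaks in Cas than in Ctrl, so these numbers describe the choice and are not tested. Together the 10 transcripts carried 43 of the 23623 peaks of the list named Ctrl and 49 of the 23134 peaks of the list named Cas. The lists come from MeRIP-seq of HEK293T cells, a human embryonic kidney line. In this assay fragmented polyadenylated RNA is captured with an antibody against m6A. All libraries carry the same treatment text, a dCas13b-M14 construct introduced with a guide RNA by polyethylenimine and harvest after 24 h, and the design names target positions on YTHDF2, SPEN and GAPDH. The labels do not state how Ctrl cells differed from Cas cells, which guide went with which group or what M14 stands for. Each group had 1 antibody library, so there is no replicate error, no test between the groups was possible, and every difference below is between 2 libraries.

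AKAPs are scaffolds that hold the cyclic AMP (cAMP) dependent protein kinase PKA, through its regulatory subunits, at a chosen place in the cell, often together with phosphatases and phosphodiesterases. They share little beyond a short amphipathic helix that docks the kinase, and differ in where they sit: mitochondria, centrosome and Golgi, nucleus, plasma membrane or cytoskeleton. m6A in messenger RNA is placed mainly in a short sequence context called DRACH, is frequent in long internal exons and near stop codons, and affects splicing, translation and decay.

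The lists give positions along RefSeq transcripts and no height, so a peak is described here by its place and width in nucleotides (nt). Peaks of the 2 lists that share at least 1 base on a transcript are called partners. A gene without a listed peak is not shown to be unmethylated, and fewer reads of an RNA and less methylation of it cannot be told apart. Of 5 genes taken as markers of the kidney line, 4 had a peak in Ctrl and 4 in Cas. Each of the 5 (KRT8, KRT18, VIM, PAX2 and NEFM) had a peak in at least 1 list, so these were not the same 4. Of 6 markers of other cell types 1, COL1A1, had a peak in each list. A peak list does not measure expression.

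AKAP13 (chromosome 15, 85380603 to 85749358 on GRCh38.p14, plus strand) encodes a large cytoplasmic PKA scaffold. On its transcript NM_006738, Ctrl had 7 peaks that covered 1576 bases and Cas had 12 that covered 3345 bases. Only 2 of the 11249 genes with a peak in either list gained more bases. Every Ctrl peak had a Cas partner, and 5 Cas peaks had no Ctrl partner. Among the 735 transcripts with 5 or more Ctrl peaks, all Ctrl peaks had a partner in 25.4%, and 0.136%, that is AKAP13 alone, also had 5 or more further Cas peaks. The further Cas peaks restate the choice of the gene, which was made on peak numbers. Those numbers do not by themselves fix the partners. The gene UTRN, also with 7 and 12 peaks, had 5 further Cas peaks but 1 Ctrl peak without a partner. The rank in bases largely restates the choice too, since the gain was 1769 bases and the 5 further Cas peaks covered 1700.

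The 7 peaks found in both lists lay at nearly the same places. In Ctrl they spanned positions 1183–1418, 2065–2353, 3580–3741, 4721–4890, 8291–8559, 8883–9147 and 11281–11465. In Cas they spanned 1183–1420, 2031–2320, 3540–3736, 4731–4935, 8263–8610, 8883–9100 and 11301–11449. Those that begin at 1183 and 8883 began at the same base in both lists.

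The 5 further Cas peaks spanned 2441–2720, 2801–3203, 3831–4400, 5387–5586 and 9181–9427. The ends nearest to a Ctrl peak were 88, 377, 90, 497 and 34 nt away from it. They were 200–570 bp wide with a median of 280 bp, against a median of 149 bp over all 5101 Cas peaks without a partner and of 218 bp (149–348) in the 7 AKAP13 Cas peaks with one. The narrowest width listed is 100 bp. Several stood close to another Cas peak. With peaks up to 100 bp apart joined, those at 2441 and 2801 became 1, and those at 3831 and 9181 joined the shared peaks at 3540 and 8883. Ctrl then had 7 peaks and Cas 9, a difference of 2 in place of 5. The covered bases then were 1576 and 3599. Without the peaks that begin and end on a grid of 10 bases the difference was 3, with 6 peaks in Ctrl and 9 in Cas.

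**Figure D1:**
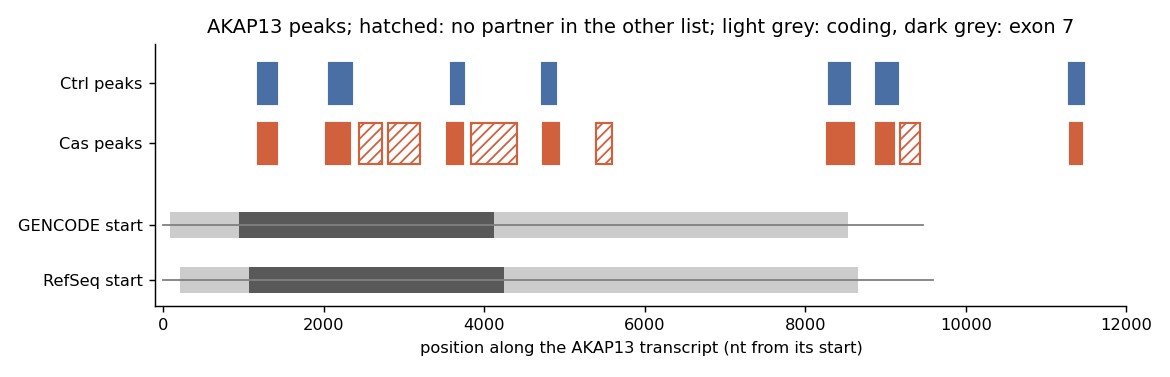
Peaks of Ctrl (blue) and Cas (red) along the AKAP13 transcript in nt from its start; hatched boxes have no partner in the other list. The grey bars show the coding sequence with exon 7 in dark grey under both possible transcript starts: 3 of the 5 hatched Cas peaks have their centre over exon 7.

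Where these peaks fall in the gene depends on where the authors' transcript begins. Its GENCODE release 29 partner starts 126 nt downstream of RefSeq's start for the gene and ends before the last AKAP13 peak of either list. Regions were therefore read under both starts, and the peak past the partner's end was counted as 3' UTR. Under both, 5 Ctrl and 9 Cas peaks had their centre in the coding sequence and 2 and 3 in the 3' UTR. Exon 7, the largest coding exon with 3178 nt, makes up 37.6% of the coding sequence and held 3 of the 5 coding peaks in Ctrl and 6 of the 9 in Cas. Of the 4 further Cas peaks in the coding sequence 3 had their centre in this exon, and the one at 5387–5586 fell into a later, shorter exon.

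The stretches below are shown because they lie inside the further Cas peaks of the AKAP13 coding sequence whichever start applies, each within a single exon. They are written 5' to 3' on the sense strand from GENCODE release 29 (GRCh38), with capitals for DRACH, that is A, G or T, then A or G, then AC, then A, C or T, searched on the RNA strand only. The positions named are those of the peaks.
AKAP13 2441–2720, chr15:85580428-85580581: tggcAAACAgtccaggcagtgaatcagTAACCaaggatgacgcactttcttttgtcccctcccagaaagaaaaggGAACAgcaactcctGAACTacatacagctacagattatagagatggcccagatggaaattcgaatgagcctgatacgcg
AKAP13 2801–3203, chr15:85580788-85581064: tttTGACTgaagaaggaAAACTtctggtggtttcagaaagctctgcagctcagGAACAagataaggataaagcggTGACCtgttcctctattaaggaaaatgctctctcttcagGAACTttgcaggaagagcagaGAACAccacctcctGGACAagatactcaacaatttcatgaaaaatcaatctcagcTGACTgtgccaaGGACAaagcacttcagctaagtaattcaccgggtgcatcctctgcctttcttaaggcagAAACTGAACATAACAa
AKAP13 3831–4400, chr15:85581890-85582107: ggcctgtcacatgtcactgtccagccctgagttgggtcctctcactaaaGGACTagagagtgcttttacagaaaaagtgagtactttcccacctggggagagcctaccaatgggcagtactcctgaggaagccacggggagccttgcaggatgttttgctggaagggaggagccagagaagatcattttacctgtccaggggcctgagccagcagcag
AKAP13 5387–5586, chr15:85693281-85693354: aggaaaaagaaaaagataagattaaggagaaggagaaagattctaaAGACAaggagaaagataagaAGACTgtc
Their lengths were 154, 277, 218 and 74 nt. They held 4, 12, 1 and 2 DRACH motifs, none of them overlapping another, and the single motif of the third was GGACT, a frequent form of DRACH. The third stretch begins at position 3903 and leaves out an earlier part of its peak in exon 7, so its count is not complete. For comparison, the same reading of the first 2 peaks present in both lists, also in exon 7, gave these stretches. The positions named for them are those that the Ctrl and the Cas peak share.
AKAP13 1183–1418, chr15:85579170-85579279: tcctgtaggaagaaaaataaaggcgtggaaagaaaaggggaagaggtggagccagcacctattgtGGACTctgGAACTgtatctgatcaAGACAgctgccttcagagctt
AKAP13 2065–2320, chr15:85580052-85580181: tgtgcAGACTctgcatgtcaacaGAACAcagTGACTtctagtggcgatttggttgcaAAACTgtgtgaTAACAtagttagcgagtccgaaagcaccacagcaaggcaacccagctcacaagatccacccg
The first held 3 DRACH motifs, 1 of them GGACT, and the second held 5. DRACH was in 97.8% of 3532 Ctrl and 97.4% of 3425 Cas peaks on coding transcripts with a matched start, so nearly all peaks hold one.

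Among the 10 genes, 4 had more peaks in Cas (AKAP1, AKAP8, AKAP11 and AKAP13), 3 had fewer (AKAP6, AKAP9 and AKAP12) and 3 had equal numbers (AKAP2, AKAP8L and AKAP10). Over all 11249 genes with a peak, 25.4% had more in Cas, 27.0% fewer and 47.6% equal numbers. There the peaks of a gene were summed over all its transcripts, while AKAP2 was counted on its own transcript. The median difference was 0 in the family and 0 over all genes. More bases were covered in Cas in 5 of the 10 genes, against 46.6% of all genes, and none of the 10 had peaks in Cas only, against 4.79%. Of the AKAP genes, 4 had 10 or more peaks over both lists. Of these, AKAP11 and AKAP13 had more in Cas, as did 40.0% of the 602 genes with so many. Without AKAP13 the other 9 genes had 36 peaks over 8728 bases in Ctrl and 37 over 9405 bases in Cas. A Cas partner was found for 77.8% of these Ctrl peaks (28 of 36, Wilson 95% interval 61.9–88.3), beside 75.8% of all Ctrl peaks. A Ctrl partner was found for 83.8% of the Cas peaks (31 of 37, interval 68.9–92.3), beside 78.0% of all Cas peaks. Both intervals, which cover only the counting of peaks, hold the value over all peaks. AKAP13 had 5 peaks more in Cas. A gain of 5 or more was found in 0.0533% of all genes and in 0.997% of those 602, and a loss of 5 or more in 0.16% of all genes. No other AKAP differed by more than 3 in either direction.

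AKAP11 (chromosome 13, 42271477 to 42323261, plus strand), also called AKAP220, binds PKA together with protein phosphatase 1 and the kinase GSK3. It had 6 peaks over 1693 bases in Ctrl and 9 over 2849 bases in Cas. A difference of 3 or more in favour of Cas was found in 1.08% of all genes. Most of these had few peaks, with a median of 2 in each list. AKAP11 belongs to the 602 genes with 10 or more peaks over both lists, for which this share is not given. Ctrl peaks spanned 624–1004, 1591–1980, 2744–3048, 4310–4450, 4678–5001 and 5500–5651. Each had 1 Cas partner, at 621–1390, 1621–1950, 2661–3104, 4308–4464, 4681–4989 and 5465–5698. The further Cas peaks spanned 3291–3560, 3606–3710 and 5101–5330.

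Part of the extra AKAP11 bases came from wider partners, since the first Cas peak was 770 bp wide and its Ctrl partner 381 bp. The gain of 1156 bases was exceeded by 15 genes, and 0.231% of all genes gained 1000 bases or more. For the genes with 10 or more peaks this share is not given either. The AKAP11 transcript NM_016248 and its GENCODE partner start 1 nt apart, so its regions can be read directly. All of its peaks were coding. Exon 8, with 4501 nt or 78.9% of the coding sequence, held 5 of the 6 Ctrl and 8 of the 9 Cas peaks, including all 3 further ones. These are shown as the counterpart of the AKAP13 stretches, with the same use of capitals and again within 1 exon.
AKAP11 3291–3560, chr13:42301862-42302130: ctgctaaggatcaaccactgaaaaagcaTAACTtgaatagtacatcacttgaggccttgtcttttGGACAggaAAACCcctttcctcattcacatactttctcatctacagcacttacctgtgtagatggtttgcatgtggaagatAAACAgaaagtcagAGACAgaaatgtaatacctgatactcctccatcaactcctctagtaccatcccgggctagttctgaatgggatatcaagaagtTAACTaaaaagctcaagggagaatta
AKAP11 3606–3710, chr13:42302177-42302280: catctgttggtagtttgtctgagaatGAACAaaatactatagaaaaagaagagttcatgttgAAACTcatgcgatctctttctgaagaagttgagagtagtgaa
AKAP11 5101–5330, chr13:42303672-42303863: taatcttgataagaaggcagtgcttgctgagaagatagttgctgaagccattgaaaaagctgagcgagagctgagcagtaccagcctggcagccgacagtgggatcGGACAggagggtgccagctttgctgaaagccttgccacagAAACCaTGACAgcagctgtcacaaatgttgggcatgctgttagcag
They held 6, 2 and 3 DRACH motifs and no GGACT.

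AKAP9 (chromosome 7, 91940862 to 92110673, plus strand) is a very large scaffold of the centrosome and Golgi that nucleates microtubules. Its transcript NM_005751 had 9 peaks over 2659 bases in Ctrl and 8 over 2390 in Cas, with 2029 bases covered in both. The 7 pairs of partners included one at 7136–7331 with both ends identical in the 2 lists. The Ctrl peaks at 771–880 and 2941–3120 were without partner, as was the Cas peak at 8071–8280. Its peaks were spread over the coding sequence, and none of either list lay in the 3' UTR. The stretch of the identical peak within exon 31 is shown as the example of an unmoved peak.
AKAP9 7136–7331, chr7:92079079-92079226: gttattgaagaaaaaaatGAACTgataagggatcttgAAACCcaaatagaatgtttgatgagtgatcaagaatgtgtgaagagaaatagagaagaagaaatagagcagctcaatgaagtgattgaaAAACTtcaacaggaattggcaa
It held 3 DRACH motifs.

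**Figure D2:**
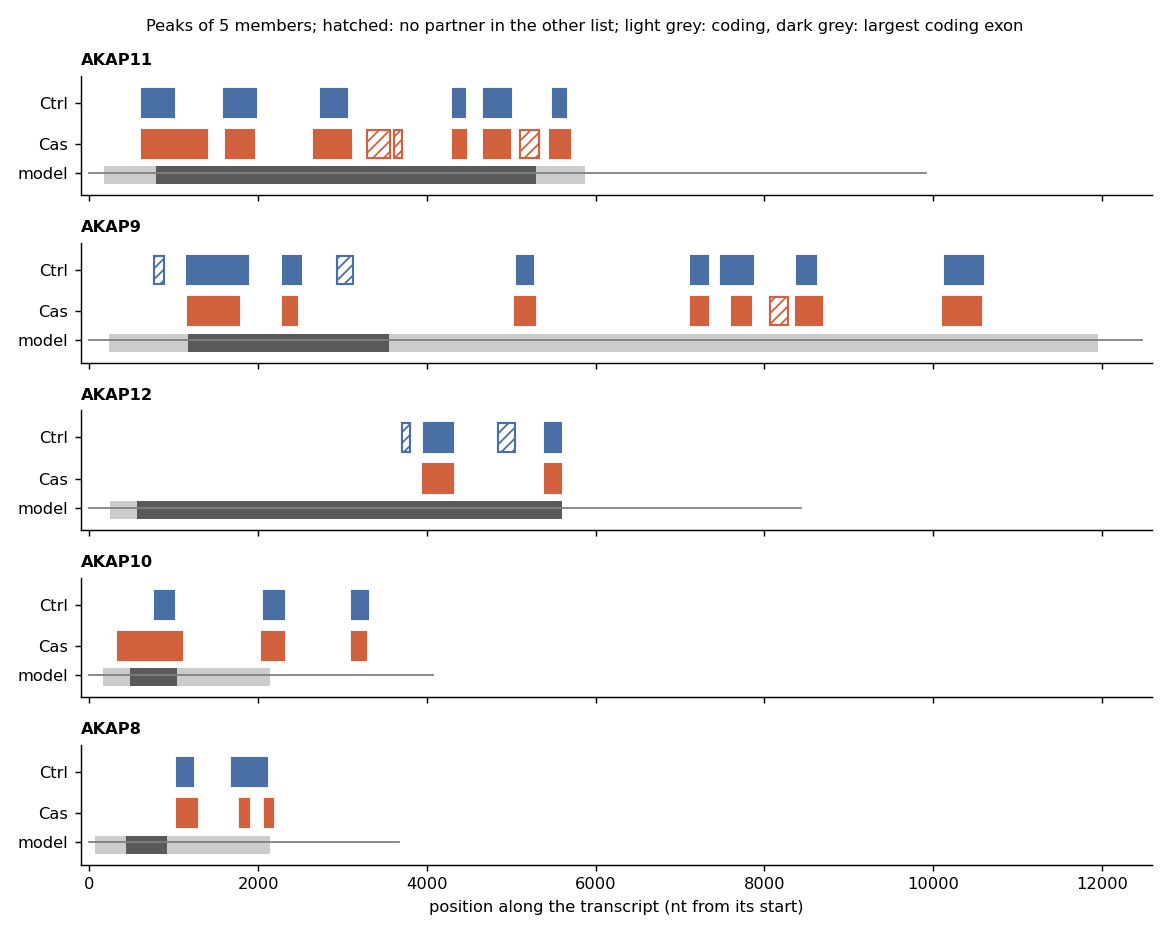
Peaks of Ctrl (blue) and Cas (red) along the transcripts of AKAP11, AKAP9, AKAP12, AKAP10 and AKAP8 in nt from the start; hatched boxes have no partner, and the grey bar is the GENCODE partner with its coding sequence (light) and largest coding exon (dark). AKAP11 has 3 hatched Cas peaks, AKAP12 has 2 hatched Ctrl peaks, and AKAP10 and AKAP8 have none.

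AKAP1, which sits on the outer mitochondrial membrane, and AKAP10 bind both types of PKA regulatory subunit. AKAP1 (NM_001242903) had Ctrl peaks at 1103–1347 and 2097–2279 and Cas peaks at 1084–1343 and 2090–2278, all in exon 3. Cas also had a peak of 150 bp at 3301–3450 in the 3' UTR. AKAP10 (NM_007202) had 3 peaks in each list, all of them paired, and 659 bases in Ctrl against 1184 in Cas. The gain lay in 1 coding peak, which spanned 775–1007 (233 bp) in Ctrl and 335–1100 (766 bp) in Cas. The other 2, which together lost a few bases, were in the 3' UTR, at 2071–2310 and 3111–3296 in Ctrl and at 2051–2303 and 3116–3280 in Cas. AKAP10 shows that covered bases can grow with the number of peaks unchanged.

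AKAP8 and AKAP8L are neighbouring nuclear zinc finger proteins on chromosome 19 that act in chromatin condensation and RNA processing. AKAP8 (NM_005858) had 2 Ctrl and 3 Cas peaks, yet fewer bases in Cas, 432 against 595. Its Ctrl peak at 1692–2107 overlapped Cas peaks at 1791–1890 and 2081–2180, and its other pair began at position 1045 in both lists. The higher number in Cas thus belongs to 1 wide Ctrl peak with 2 narrow partners, both of 100 bp. AKAP8L (NM_014371) was nearly the same in both lists, with peaks at 1091–1314 and 1739–1887 in Ctrl and at 1088–1313 and 1739–1886 in Cas, 373 and 374 bases in all.

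AKAP12 and AKAP6 had fewer peaks in Cas. AKAP12, a plasma membrane scaffold also called gravin, had Ctrl peaks at 3701–3800, 3971–4310, 4841–5040 and 5399–5584 of NM_005100. Cas had partners of those at 3971 and 5399, at 3951–4310 and 5405–5584, so that bases fell from 826 to 540. All of these lay in exon 4, which holds 94.0% of the coding sequence. AKAP6, which anchors PKA at the nuclear envelope of muscle cells, had a single Ctrl peak at 6401–6500 of NM_004274 and none in Cas. That peak had the smallest width listed, and 10.0% of all genes had peaks in Ctrl only.

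AKAP2 binds actin and PKA, and in current RefSeq it belongs to the combined gene PALM2AKAP2 on chromosome 9. The lists hold 3 transcripts of this locus. NM_001198656 is AKAP2, NM_007203 is the PALM2-AKAP2 readthrough that contains the AKAP2 body, and NM_053016 is PALM2, a paralemmin without that body, with 2 peaks in each list. AKAP2 had 7 peaks in each list, over 1395 bases in Ctrl and 1037 in Cas, of which 4 Ctrl and 6 Cas peaks had a partner. Ctrl peaks spanned 591–767, 991–1200, 1742–1958, 2091–2190, 2431–2654, 3150–3346 and 3971–4240. Cas peaks spanned 771–910, 981–1100, 1131–1308, 1681–1790, 1821–1930, 3191–3339 and 3961–4190. The 3 Ctrl peaks without a partner were those at 591, 2091 and 2431.

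The shared body was called on both transcripts, which lets the peak numbers of 1 RNA stretch be read 2 times. A shift of 516 nt brought 9 peak ends of the 2 transcripts to the same position, against 3 at the next best shift. After it, all 7 Ctrl peaks of AKAP2 met 1 readthrough peak each, 7 against 7. In Cas the 7 AKAP2 peaks met only 4 of the 5 readthrough peaks. Those at 771, 981 and 1131 fell into a single readthrough peak of 554 bp (1271–1824), and those at 1681 and 1821 into another of 369 bp (2121–2489). The remaining readthrough peak, 2571–2700, had no counterpart on AKAP2. The same Cas RNA was thus listed as 7 peaks over 1037 bases or as 5 over 1472 bases. Read on the readthrough, Cas had fewer peaks than Ctrl, 5 against 7, where on AKAP2 the numbers were equal. The readthrough counterparts of the AKAP2 Ctrl peaks at 591 and 2091 had a Cas partner, and only that of the peak at 2431 had none. With the readthrough in place of AKAP2, the family without AKAP13 had partners for 83.3% of Ctrl peaks (30 of 36). For Cas peaks the share was 85.7% (30 of 35). Reads of the 2 transcripts cannot be told apart in this body.

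Across the family, peaks were mainly coding. With both starts read where they differ, 37 of 43 Ctrl and 41 of 49 Cas peaks had their centre in the coding sequence and 6 and 8 in the 3' UTR; none was in the 5' UTR. Over the coding transcripts with a matched start 64% of Ctrl and 66% of Cas peaks were coding. Internal exons of 1000 nt or more held 25 of the 43 Ctrl and 28 of the 49 Cas peaks, in AKAP1, AKAP2, AKAP6, AKAP9, AKAP11, AKAP12 and AKAP13. Among the 4 AKAP genes with a matched start it was 10 of 20 (50%) and 13 of 23 (56.5%), while over all peaks on matched coding transcripts it was 8.07% and 7.77%. Most transcripts have no such exon, so the 7 AKAP genes were also read by their coding peaks alone. Of these, 25 of 32 in Ctrl (78.1%) and 28 of 35 in Cas (80%) lay in such an exon. The comparison used 114 matched transcripts in Ctrl and 109 in Cas. There such an exon held 69.4% of 382 coding Ctrl peaks and 66.1% of 380 coding Cas peaks. It took up 47.8% and 47.2% of their coding sequence. These shares stand for 265 and 251 peaks, fewer than the 285 and 266 behind 8.07% and 7.77%. They thus rest on a narrower count. In the 7 AKAP genes the largest such exon alone took up between 20.4% (AKAP9) and 94.0% (AKAP12) of the coding sequence, with 83.7% in AKAP2 and 78.9% in AKAP11. Their joint share is not given, so the higher peak shares of the AKAP genes are not set against exon size. Only 2 Ctrl and 4 Cas peaks of the family had their centre within 200 nt of the last coding base under every start, with 2 more in each list under one start only, against 24% and 23% on matched transcripts. AKAP8, AKAP9, AKAP10 and AKAP11 were the genes with a matched start. In them DRACH was found in 20 of 20 Ctrl and 22 of 23 Cas peaks. GGACT was found in 5 of 20 Ctrl peaks (25%, Wilson 95% interval 11.2–46.9), and its share on all matched transcripts was 29.2%. In Cas it was found in 4 of 23 peaks (17.4%, interval 6.98–37.1), with 27.8% on all matched transcripts. Both of these shares fell inside the intervals.

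The genes whose pair of peak numbers lay nearest to that of AKAP13 were, in order of distance, UTRN (7 in Ctrl and 12 in Cas), CLASP1 (8 and 11), MDN1 (9 and 12), VPS13D (7 and 10) and MPRIP (7 and 10). The measure was the straight-line distance over the 2 libraries, with ties broken by covered bases. In covered bases none of them reached the change of AKAP13. UTRN, which encodes a relative of dystrophin, went from 1897–2367 bases, MPRIP from 1470–2065, and VPS13D from 2213 down to 1757.

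The rest of the cAMP and PKA pathway was read from 83 genes in 11 lists, of which 62 had a peak. Of these, 14 had more peaks in Cas, 23 fewer and 25 equal numbers, beside the 25.4%, 27.0% and 47.6% of all genes; the median difference was 0. Peaks summed to 159 in Ctrl and 147 in Cas. Peaks in Ctrl only were found at 7 of these 62 genes and in Cas only at 0, beside 10.0% and 4.79% of all genes.

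Among the subunits of the kinase, 3 of 4 catalytic genes had peaks, with none higher in Cas. PRKX, a PKA-like kinase, had 4 in Ctrl and 1 in Cas, and PRKACB had 1 in each. Of 4 regulatory genes 3 had peaks: PRKAR2A had 3 and 2, and PRKAR1A, the main regulatory subunit of many tissues, 2 and 2. The PKA inhibitors PKIG and PKIB had 1 peak in each list. Phosphodiesterases, which break cAMP down, had 14 peaks in Ctrl and 8 in Cas over 9 genes. Of those 9, 6 had fewer in Cas and 1 more, with PDE3B at 3 and 2 and PDE4D at 3 and 1. Over all genes 27.0% had fewer and 25.4% more. No phosphodiesterase gene had more than 3 peaks in either list. This fall in peak number was the largest among the lists read, so it is picked out by its size, and it was not tested. Adenylyl cyclases, which make cAMP, had 17 in each list, with ADCY1 at 4 and 4, ADCY7 and ADCY3 at 3 and 4 and ADCY9 at 4 and 3. CREB factors and coactivators had 13 and 14, with CREB1 at 4 and 4, CRTC3 at 2 and 3 and CRTC1 at 3 and 2. The cAMP-gated exchange factors RAPGEF3 and RAPGEF4 had 1 in each.

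Other anchoring proteins had no change of the size seen at AKAP13. AKAP3, AKAP5 and AKAP7 had peaks, AKAP5 with 4 in Ctrl and 3 in Cas and AKAP7 with 2 and 3, while AKAP4, AKAP14 and AKAP17A had none listed. Anchoring proteins under other names had 41 and 40 over 12 genes, led by ARFGEF2, LRBA and PCNT with 6 in Ctrl and 7 in Cas each. Phosphatases and kinases bound by AKAPs had 30 and 32 over 11 genes, a list that also held CDK5RAP2, a centrosomal protein, at 5 and 6. In it PPP3CA, the calcineurin catalytic subunit, had 4 and 6.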

How the data were processed

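Peak lists of 1 Ctrl and 1 Cas m6A immunoprecipitation library were used, and the input libraries were not used. The lists deposited by the authors hold, for each peak, its RefSeq transcript, where on it the peak begins and ends, another position between these that no source explains, and a strand that is always plus. They hold no score or read number, so depth is unknown. Per the submitters' processing notes the tools were HISAT2, SAMtools, FastQC, fastp, HOMER and edgeR, on GRCh38. Not given in the sources used here are the caller that made the peaks, its threshold, whether input was subtracted and the transcript version.

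Of 11254 transcripts, 10935 matched the RefSeq table of GRCh38.p14, 65 more were named through GENCODE release 29 and 254 kept their accession. Transcript models and sequences came from the single GENCODE partner of a transcript. A start was called matched when a RefSeq start lay within 10 nt of the partner's and no peak passed its end (1782 transcripts). For the other AKAP genes both starts were read, except AKAP2, for which RefSeq gave none. A peak was placed by its centre. Overlaps were computed in Python 3.11.15 and intervals in scipy 1.17.1, and the overlap code was tested on simulated data. The family, gene lists and rules were chosen with earlier results of these data known: all 10 genes are named, as are the 2 genes with most peaks per pathway list (ties by covered bases, with genes tied in peak number added later) and the 5 nearest to AKAP13 in peak numbers. Alternatives changed the peaks used, the overlap, the placing of peaks and the motif window. The values of 1 pathway list, which enter the sums over all lists, are not reported here.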

Additional observations from a re-analysis of the deposited data

How the results depend on the processing

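No paired analysis was possible because both groups consist of a single library. Of 81 alternative values, 65 stayed within 1.5 times the reported count or within its interval and 16 did not; none reversed the difference at AKAP13. The pathway alternatives and the readthrough reading of AKAP2 were chosen after seeing the data. With the wider 50% of each list, which removes peaks by construction, AKAP13 had 4 peaks in Ctrl and 11 in Cas, 4 overlapped in Ctrl and 4 in Cas, and the other AKAP genes had 22 and 22 peaks, with 68.2% of the Cas peaks overlapped. With peaks within 100 bp joined, the AKAP13 difference was 2. Without peaks whose ends both lie on a grid of 10 bases, also fewer by construction, it was 3, with 2205 bases in Cas; the other AKAP genes had 21 peaks over 5226 bases in Ctrl and 19 over 5245 in Cas, and 5 pathway genes had more peaks in Cas in place of 14. The share of all genes with more peaks in Cas is not given without the grid peaks, so the pathway count has no background there. A reciprocal overlap of 50% left 67.6% of the other AKAP genes' Cas peaks overlapped. Within 50 nt of the peak centre, a shorter stretch for most peaks, GGACT was in 10% of Ctrl peaks of the matched AKAP genes. The interval was 2.79–30.1, and the share on all matched transcripts was then 16.4%. The cause of these moves was otherwise not tested. Without depth, a missing peak cannot be read as missing methylation.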

Other observations

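Each deposited line also holds a further position inside the peak, which the comparisons above did not use. In the 32 pairs of AKAP peaks in which 1 Ctrl peak met 1 Cas peak, these positions lay a median of 9.5 nt apart, and 17 pairs (53.1%) were within 10 nt of each other. Over the 17328 such pairs of the whole lists the median was 20.0 nt, and 39.1% were within 10 nt. The position was the same base in both lists at the 2 shared peaks of AKAP1 (1222 and 2170), at the first peak of AKAP8 (1086) and at 2 peaks of AKAP11 (2786 and 4762), although the ends of those peaks differed by up to 83 nt. At AKAP13 the 7 pairs differed by 5 to 45 nt.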
